A study of Homo sapiens with 16 samples.

Results

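The JAK kinases and STAT factors are the 9 genes JAK1, JAK2, JAK3, TYK2, STAT2, STAT3, STAT5A, STAT5B and STAT6, taken by symbol from the 25370 genes of the raw count table, and all 9 were among the 16004 genes with enough reads to be tested. RNA-seq was performed on 16 libraries of HMC3 cells, an immortalized human cell line sold as microglia, with 2 libraries in each of 8 conditions. Cells were exposed to vehicle, to 0.1 nM estradiol (E2), to 400 nM ketamine, to 400 nM of the ketamine metabolite (2R,6R)-hydroxynorketamine, written (2R,6R)-HNK, or to 400 nM of its mirror image (2S,6S)-HNK, and each of the 3 drugs was also given together with 0.1 nM E2, with names such as E2+ketamine. By the study's methods drug exposure lasted 24 h in medium without serum, after a period in charcoal-stripped serum and a period without serum, and whether vehicle and E2 alone were handled alike is not stated there. Whether both libraries of a condition stem from cultures grown apart is not stated, so p-values measure the spread between libraries, which may be technical. Beyond counting noise, that spread was small, a coefficient of variation of 2.81% fitted in common to all genes tested (edgeR). Whether it includes differences between cultures cannot be told. The comparisons ask how each drug and E2, alone or together, shifted these transcripts.

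Cytokine and interferon receptors have no enzyme activity of their own. Janus kinases (JAKs) sit on the inner part of the receptor chains, and when a ligand draws the chains together the kinases phosphorylate one another, the receptor and then the STAT proteins, which pair up, enter the nucleus and bind DNA. JAK1, JAK2 and TYK2 serve many receptors, while JAK3 serves the receptors that share the common gamma chain and is best known from lymphoid cells. STAT2 carries type I interferon signals together with IRF9, STAT3 carries signals of the IL-6 family, STAT5A and STAT5B those of growth hormone, prolactin and IL-2, and STAT6 those of IL-4 and IL-13. Much of this signalling is set by phosphorylation, which transcript counts do not measure.

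The labelled cell type was checked against marker genes. Of 14 microglia and macrophage markers, 2 were above 1 CPM (read counts scaled to library size) on average, CD68 and CD14, C1QA had 0 counts in every library, and AIF1, CX3CR1, P2RY12, TMEM119, ITGAM, PTPRC, SPI1, TYROBP and C1QB had between 0 and 7 counts, while CSF1R had 24 to 89 and TREM2 25 to 79 in every library. The summed level of the list lay between 21.9 and 28.5 CPM by condition. Of 12 fibroblast and pericyte markers 9 were above 1 CPM, with a sum between 19011 and 24388 CPM. Most of that sum came from FN1 (mean 14764 CPM) and COL1A1 (4538 CPM). In the same list COL3A1 had 0 to 6 counts, LUM 0 to 4 and DCN 0 to 12, and ACTA2 averaged 2.12 CPM. Of 9 astrocyte and neuron markers 4 were above 1 CPM. Of the 9 fibroblast and pericyte markers tested, 3 to 9 rose and 0 to 2 fell against vehicle by treatment, and 2 to 4 rose and 2 to 6 fell after the correction for GC content described next. Of 4 microglia and macrophage markers tested 0 to 3 rose and 0 to 1 fell (0 to 1 and 0 to 1 after it), and of 7 astrocyte and neuron markers 0 to 2 rose and 0 to 2 fell (0 to 2 and 1 to 2 after it). The part of these markers in the results on the members was not tested. Libraries held 55300614 to 81646165 counts, so that 3 counts amount to 0.0367 to 0.0542 CPM. Of the counts from 1 to 9, 65.8% were even, against 49.9% of those of 500 or more, although the study's methods name read pairs as the unit counted, so that whether 1 count always stands for a pair was not settled. The nuclear RNAs MALAT1 and NEAT1 together took 0.0264% and 0.0302% of the counts in vehicle and between 0.0103% and 0.0298% in the treated libraries, lowest with E2+ketamine (0.0103% and 0.0117%), and the part of this in the results was not tested. The slope of expression on GC content, relative to the mean of the libraries, was -0.364 and -0.385 log2 per 10 points of GC in the 2 vehicle libraries and between -0.147 and 0.247 in the 14 treated ones. Every comparison with vehicle thus sets libraries of unlike base composition against each other, and results are given also after each library's values were corrected for GC content and exon length. In bulk RNA, fewer cells carrying a transcript and less transcript per cell cannot be told apart.

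The 4 kinase genes share one catalytic design but are written in very different bases, which is why a stretch of each is shown. It is the coding sequence, 93 bases long, of the activation segment, the loop of the kinase domain that must be phosphorylated for full activity, read 5′ to 3′ along the canonical transcript on GRCh37, and the capitals mark the codons of its 2 neighbouring tyrosines. The stretch of JAK1 covers codons 1021 to 1051 in exons 22 and 23, chr1:65301886-65303694, on the minus strand, with tyrosines 1034 and 1035 and 46.2% GC. That of JAK2 covers codons 994 to 1024 in exons 22 and 23, chr9:5090832-5123016, on the plus strand, with tyrosines 1007 and 1008 and 37.6% GC. JAK3 is shown for codons 967 to 997 in exons 21 and 22, chr19:17941417-17942116, on the minus strand, with tyrosines 980 and 981 and 59.1% GC, and TYK2 for codons 1041 to 1071 in exons 22 and 23, chr19:10463215-10463681, on the minus strand, with tyrosines 1054 and 1055 and 65.6% GC:
JAK1: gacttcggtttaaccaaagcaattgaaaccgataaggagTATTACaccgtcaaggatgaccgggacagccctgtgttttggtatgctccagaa
JAK2: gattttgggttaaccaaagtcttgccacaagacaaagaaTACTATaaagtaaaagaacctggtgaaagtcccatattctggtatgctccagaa
JAK3: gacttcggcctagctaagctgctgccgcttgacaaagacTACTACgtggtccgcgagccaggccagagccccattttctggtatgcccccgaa
TYK2: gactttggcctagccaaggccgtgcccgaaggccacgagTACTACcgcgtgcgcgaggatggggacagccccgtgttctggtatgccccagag

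The same order held over whole genes. GC content over the union of exons was 38.2% for JAK2 and 48.1% for JAK1 against 57.4% for JAK3 and 59.9% for TYK2, and among the STAT genes it ran from 48.6% for STAT3 through 50.9% for both STAT2 and STAT5B and 55.5% for STAT6 to 57.3% for STAT5A. No pair of JAK genes shared a run of 100 bases, the read length, in their canonical transcripts.

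STAT5A and STAT5B are neighbours on chromosome 17, at chr17:40439565-40463961 on the plus strand and chr17:40351194-40440651 on the minus strand, and 87.0% of their aligned coding bases are the same. The stretch around the tyrosine that is phosphorylated on activation, codon 694 of STAT5A in exons 16 and 17, chr17:40460339-40461114, and codon 699 of STAT5B in exons 16 and 17, chr17:40354777-40359588, is shown to make the likeness visible, with that codon in capitals:
STAT5A: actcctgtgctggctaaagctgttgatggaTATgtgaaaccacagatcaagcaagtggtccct
STAT5B: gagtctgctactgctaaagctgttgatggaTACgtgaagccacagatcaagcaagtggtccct

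Of the 3671 windows of 100 bases in the STAT5A transcript, 371 occur unchanged in STAT5B, and the genes overlap by 415 exonic bases on opposite strands, so reads from them could be split or discarded and their values are less certain than those of the other members. JAK1 (chr1:65298906-65533437, minus strand) shares 647 exonic bases with LINC01359 and 309 with RP4-535B20.1 on the same strand and 10 with RAVER2 on the other, and STAT6 (chr12:57489191-57525922, minus strand) shares 69 with NAB2 and 59 with LRP1 on the other strand. JAK2 lies at chr9:4984390-5129948 on the plus strand, and JAK3 at chr19:17935589-17958880, TYK2 at chr19:10461209-10491284, STAT2 at chr12:56735381-56753987 and STAT3 at chr17:40465342-40540558 lie on the minus strand. A strand setting for the counting is not given in the sources used here, so reads of overlapping genes cannot be told apart.

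In vehicle-treated cells the members fell into an abundant and a scarce group. STAT3 stood at 133 ± 0.254 CPM (SD, n = 2), JAK1 at 129.8 ± 4.31, STAT2 at 66.5 ± 2.42, STAT6 at 57.4 ± 1.84, TYK2 at 54.1 ± 1.80 and STAT5B at 51.2 ± 2.83, whereas JAK2 stood at 8.72 ± 0.561, STAT5A at 4.03 ± 0.0301 and JAK3 at 2.29 ± 0.648. Per length of exon, as FPKM over the union of exons, STAT3 (11.9) was followed by JAK1 (9.86), STAT6 (7.86), STAT2 (7.14), TYK2 (6.35), STAT5B (4.23), JAK2 (1.10), STAT5A (0.632) and JAK3 (0.273). With the length of the canonical transcript STAT2 (15.1) stood above STAT6 (14.5), and the rest of the order was the same. All 9 transcripts were thus counted in these cells, JAK3 with the fewest reads, 109 and 168 in the vehicle libraries. Each member differed among the 8 conditions (edgeR quasi-likelihood F test with 7 contrasts at once, adjusted p between 2.1e-27 for STAT2 and 6.5e-12 for JAK2), as did 82.1% of the genes tested. The ratio of the highest to the lowest condition mean was smallest for STAT3 (1.46) and largest for JAK3 (2.84).

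**Figure D1:**
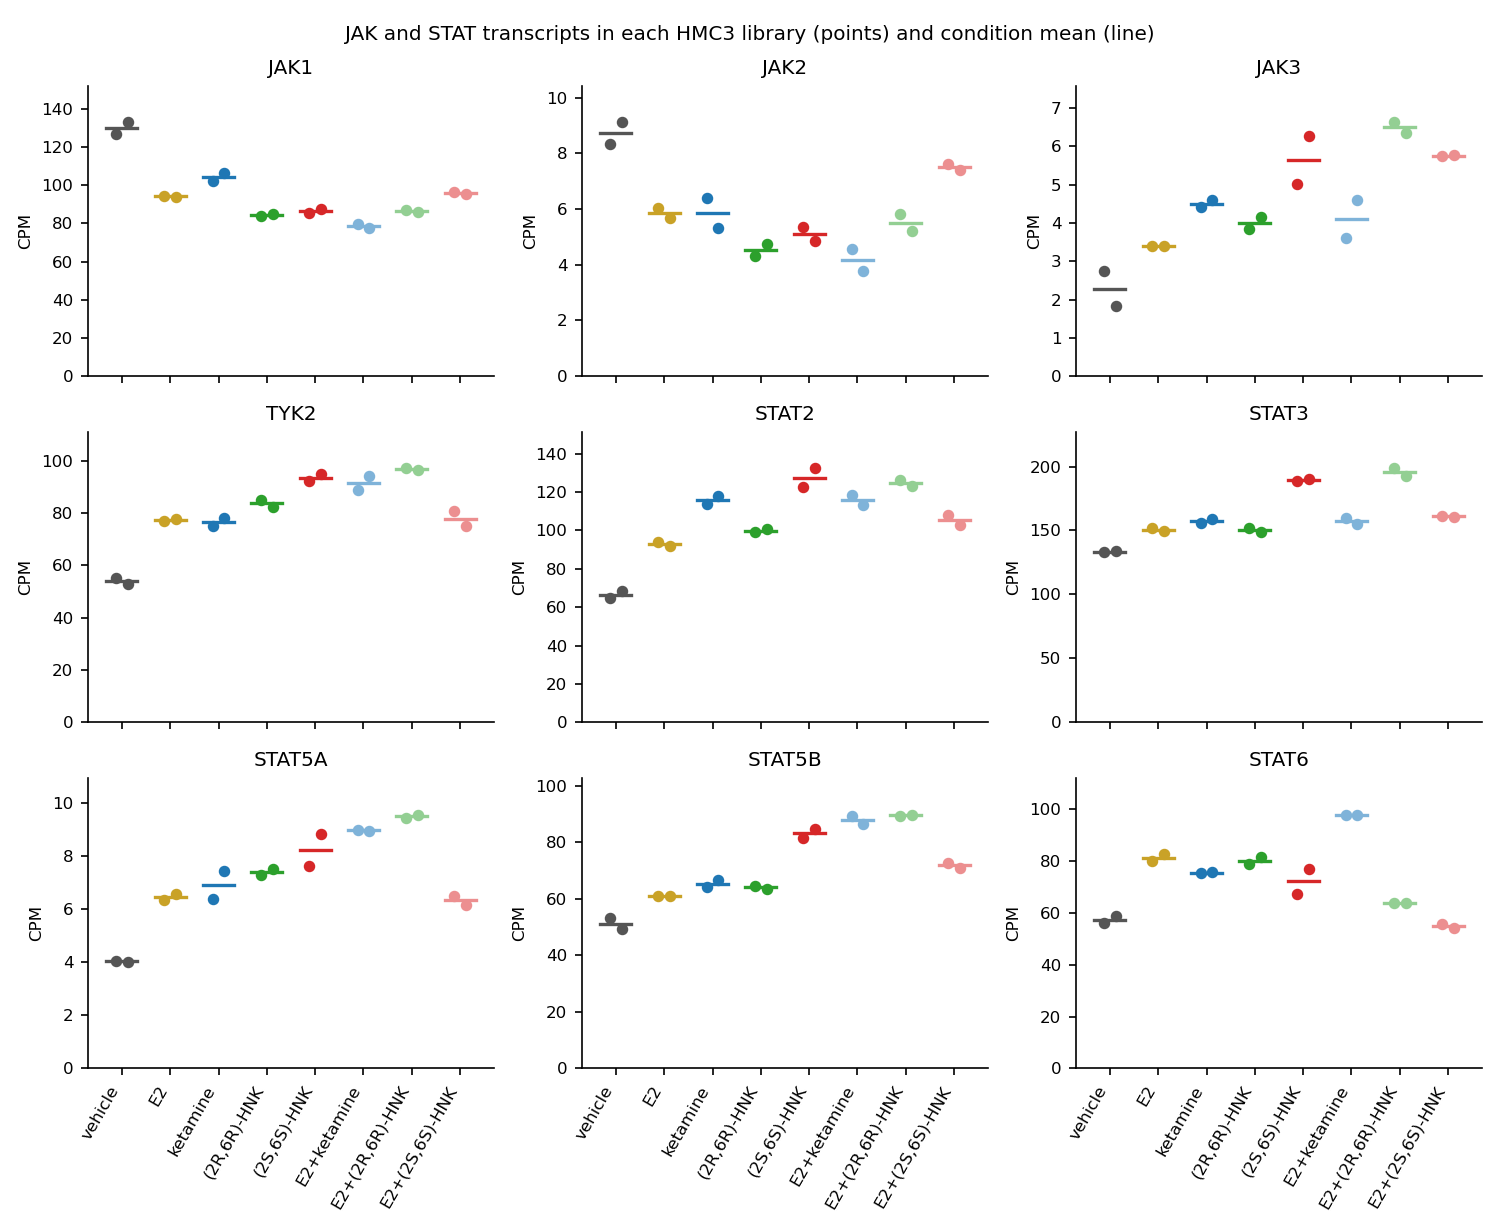
Level of each JAK and STAT transcript in CPM (vertical axes from 0) in the 16 HMC3 libraries, by condition, with points for the 2 libraries and a line for their mean. JAK1 and JAK2 are highest with vehicle, JAK3, TYK2, STAT2, STAT3, STAT5A and STAT5B are lowest there, and STAT6 with E2+(2S,6S)-HNK (54.3 and 55.7 CPM) lies just under its vehicle libraries (56.05 and 58.7 CPM).

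Among the kinases, JAK1 and JAK2 were lower and TYK2 and JAK3 higher than both vehicle libraries in all 14 treated libraries. JAK1, which serves interferon, IL-6 family and common gamma chain receptors, was at 126.8 and 132.9 CPM with vehicle, 93.97 and 94.5 with E2, 102.3 and 106.3 with ketamine, 85.6 and 87.7 with (2S,6S)-HNK, 83.97 and 85.03 with (2R,6R)-HNK, 77.5 and 79.4 with E2+ketamine, 95.1 and 96.5 with E2+(2S,6S)-HNK, and 85.7 and 87.1 with E2+(2R,6R)-HNK. No treated library reached the vehicle range, and the only neighbours in the order of conditions whose libraries overlapped were (2S,6S)-HNK and E2+(2R,6R)-HNK. The fall was smallest with ketamine, a log2 fold change of -0.32 ± 0.033 (SE; adjusted p = 8.9e-12, edgeR), and largest with E2+ketamine at -0.73 ± 0.034 (adjusted p = 1.1e-24). After the GC and length correction the 7 changes lay between -0.59 and -0.33, each still past the threshold of an adjusted p under 0.05.

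TYK2, which serves the type I interferon and IL-12 family receptors, moved the other way. Its libraries were at 52.8 and 55.3 CPM with vehicle, 76.9 and 77.7 with E2, 74.98 and 77.96 with ketamine, 92.1 and 94.996 with (2S,6S)-HNK, 82.3 and 85.1 with (2R,6R)-HNK, 88.8 and 94.02 with E2+ketamine, 75.03 and 80.7 with E2+(2S,6S)-HNK, and 96.5 and 97.1 with E2+(2R,6R)-HNK. Treated and vehicle libraries did not overlap, while E2 overlapped with ketamine and with E2+(2S,6S)-HNK at the low end of the treated range, and (2S,6S)-HNK with E2+ketamine near its top. The rise ran from 0.50 ± 0.040 log2 with ketamine (adjusted p = 9.9e-16, edgeR) to 0.84 ± 0.039 with E2+(2R,6R)-HNK (adjusted p = 1.0e-24). TYK2 has the highest GC content of the 9, and the correction brought its changes down to between 0.13 and 0.33, each past the threshold.

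JAK2, the kinase of the erythropoietin, growth hormone and interferon gamma receptors, fell from 8.32 and 9.11 CPM with vehicle to 3.77 and 4.58 with E2+ketamine, a log2 fold change of -1.06 ± 0.12 (adjusted p = 1.2e-11, edgeR). The fall passed the threshold in 6 of 7 treatments, and with E2+(2S,6S)-HNK the libraries were at 7.40 and 7.63 CPM, with a log2 fold change of -0.21 (95% interval -0.43 to 0.00025, adjusted p = 0.080). JAK2 has the lowest GC content of the 9, and its calls depended on the correction. They held with (2R,6R)-HNK (-0.35, adjusted p = 0.0072) and E2+ketamine (-0.33, adjusted p = 0.012), missed the threshold with E2 (-0.067), ketamine (-0.16), (2S,6S)-HNK (-0.23) and E2+(2R,6R)-HNK (-0.069), and the sign turned with E2+(2S,6S)-HNK (0.082, adjusted p = 0.52).

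JAK3 rose in all 7 treatments, from 1.83 and 2.75 CPM with vehicle to 6.35 and 6.63 with E2+(2R,6R)-HNK, a log2 fold change of 1.50 ± 0.15 (adjusted p = 2.1e-13, edgeR). Its smallest rise, with E2 (0.57 ± 0.16, adjusted p = 0.0013), rested on 1 vehicle library: without vehicle replicate 2 it was 0.31 (adjusted p = 0.14), and after the GC and length correction it was 0.24 (adjusted p = 0.22). The other 6 rises of JAK3 stayed past the threshold after the correction, at 0.35 to 1.12.

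Per length and without the GC and length correction, the kinase family as a whole moved little while its make-up shifted. The summed FPKM of the 4 kinases was 17.6 ± 0.109 with vehicle and 17.3 to 19.4 by treatment. Sums after the correction were not computed. The correction shrank the rise of TYK2 more than the fall of JAK1 in each treatment, so the steady sum holds for uncorrected values only. JAK1 made up 56.1% ± 1.51 (SD, n = 2) of that sum with vehicle and 33.7% to 43.6% with treatment, and TYK2 made up 36.1% ± 1.43 with vehicle and 49.4% to 60.6% with treatment, so that without the correction TYK2 was above JAK1 per length in each of the 7 treatments. Which of them led with ketamine, E2 and E2+(2S,6S)-HNK depends on the length used. With the longest transcript in place of the union of exons both held 47.1% with ketamine, and with the canonical transcript JAK1 stayed above TYK2 with ketamine (51.0% and 44.9%), E2 (48.5% and 47.7%) and E2+(2S,6S)-HNK (47.9% and 46.7%). It depends on the GC and length correction too. Over the union of exons TYK2 stood at -0.63 log2 FPKM relative to JAK1 with vehicle. The shift of TYK2 against JAK1 of 0.82 to 1.48 log2 by treatment was 0.48 to 0.91 after the correction. That was too small with E2 (0.55) and ketamine (0.48) to bring TYK2 above JAK1. By the longest transcript (JAK1 16.7 and TYK2 9.47 FPKM with vehicle) the corrected shift was large enough only with (2S,6S)-HNK (0.88) and E2+(2R,6R)-HNK (0.91). By the canonical transcript (25.5 and 12.7 FPKM) the corrected shift was too small in each of the 7 treatments. JAK2 held 6.27% of the kinase sum with vehicle and 2.99% to 5.27% with treatment, and JAK3 1.56% and 2.34% to 4.00%. With the canonical transcript JAK2 held 3.11% with vehicle and 1.55% to 2.72% with treatment, and JAK3 1.07% and 1.65% to 2.88%. The STAT sum, also without the correction, was 31.8 ± 0.298 FPKM with vehicle and 40.2 to 48.6 FPKM with treatment.

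**Figure D2:**
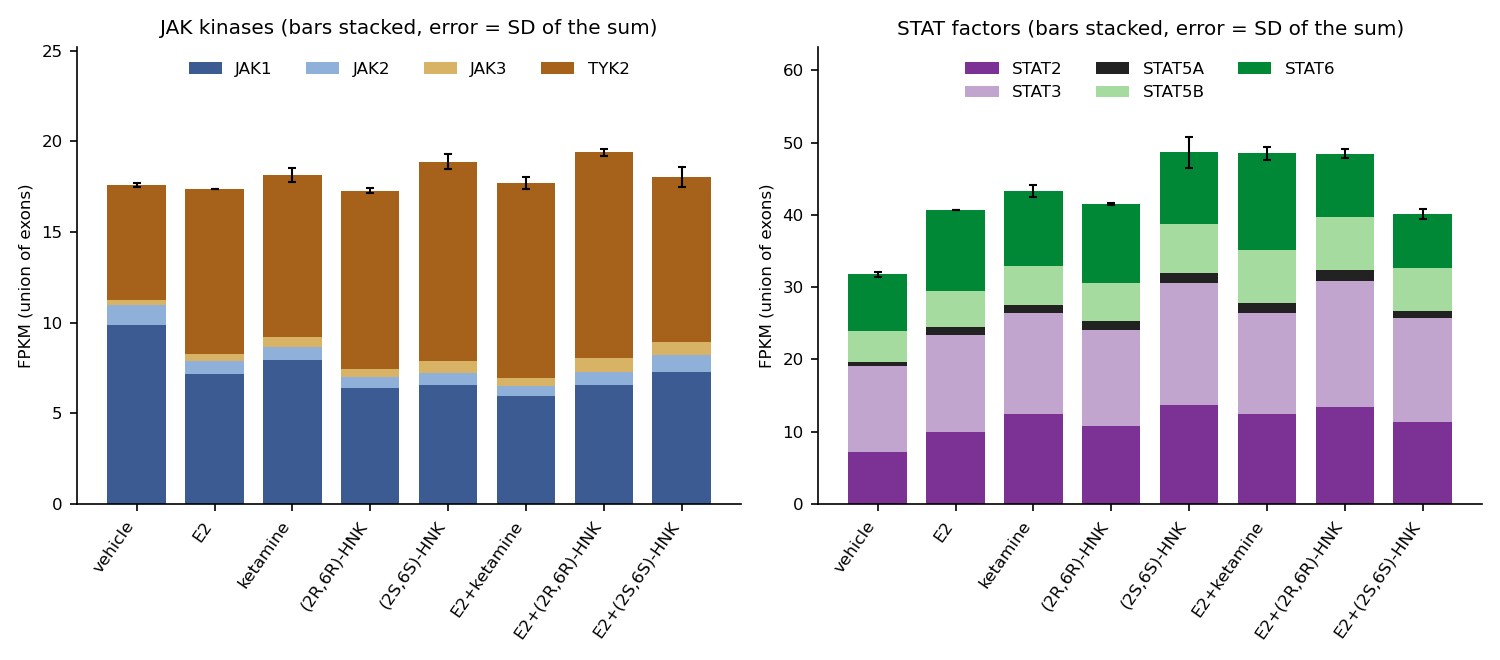
Stacked FPKM over the union of exons (vertical axes from 0) of the 4 JAK kinases on the left and the 5 STAT factors on the right by condition, as means of 2 libraries with the SD of the sum as error bar. Values are without the GC and length correction. The kinase sum stays between 17.3 and 19.4 FPKM with treatment while the TYK2 part is wider and the JAK1 part narrower than with vehicle, and the STAT sum is lowest with vehicle.

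All 5 STAT factors were higher than vehicle with E2, with ketamine, with either metabolite and with E2+ketamine. STAT3, STAT2, STAT5A and STAT5B were above both vehicle libraries in all 14 treated libraries, and STAT6 in 12. STAT3, the factor of IL-6 family signals, was at 133.2 and 133.6 CPM with vehicle, 149.8 and 151.6 with E2, 155.5 and 159.3 with ketamine, 188.6 and 190.6 with (2S,6S)-HNK, 148.5 and 151.7 with (2R,6R)-HNK, 155.2 and 159.5 with E2+ketamine, 160.9 and 161.7 with E2+(2S,6S)-HNK, and 192.4 and 198.5 with E2+(2R,6R)-HNK. Its highest conditions, (2S,6S)-HNK and E2+(2R,6R)-HNK, stood apart from the rest, whereas E2 and (2R,6R)-HNK overlapped, as did ketamine and E2+ketamine. The log2 fold change ran from 0.17 ± 0.029 with (2R,6R)-HNK (adjusted p = 1.0e-06, edgeR) to 0.55 ± 0.029 with E2+(2R,6R)-HNK (adjusted p = 6.9e-23), and the correction left the changes at 0.19 to 0.53, each past the threshold.

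STAT2, which binds IRF9 in the type I interferon complex, was at 64.8 and 68.2 CPM with vehicle, 92.02 and 94.01 with E2, 113.8 and 117.9 with ketamine, 122.6 and 132.3 with (2S,6S)-HNK, 98.95 and 100.7 with (2R,6R)-HNK, 113.0 and 118.4 with E2+ketamine, 102.9 and 107.9 with E2+(2S,6S)-HNK, and 123.2 and 126.3 with E2+(2R,6R)-HNK. E2 alone gave the lowest treated level, and every drug, with or without E2, lay above it. The log2 fold change was 0.48 ± 0.038 with E2 (adjusted p = 6.6e-16, edgeR) and 0.94 ± 0.037 with (2S,6S)-HNK (adjusted p = 2.5e-27), and after the correction the 7 changes lay between 0.38 and 0.82, each past the threshold. IRF9, its partner, named here after its values were seen, rose in all 7 treatments by 0.45 to 0.90 log2, and by 0.28 to 0.68 after the correction.

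STAT5A and STAT5B, which carry growth hormone, prolactin and IL-2 signals, rose in all 7 treatments. STAT5A was at 4.01 and 4.05 CPM with vehicle, 6.33 and 6.58 with E2, 6.39 and 7.46 with ketamine, 7.65 and 8.82 with (2S,6S)-HNK, 7.29 and 7.52 with (2R,6R)-HNK, 8.94 and 9.002 with E2+ketamine, 6.14 and 6.51 with E2+(2S,6S)-HNK, and 9.44 and 9.57 with E2+(2R,6R)-HNK. STAT5B was at 49.2 and 53.2 CPM with vehicle, 60.9 and 61.1 with E2, 64.1 and 66.8 with ketamine, 81.5 and 84.9 with (2S,6S)-HNK, 63.5 and 64.7 with (2R,6R)-HNK, 86.4 and 89.5 with E2+ketamine, 71.1 and 72.7 with E2+(2S,6S)-HNK, and 89.3 and 89.9 with E2+(2R,6R)-HNK. Both genes had their 3 highest means with E2+(2R,6R)-HNK, E2+ketamine and (2S,6S)-HNK, although STAT5A is scarce and STAT5B abundant. The changes of STAT5A ran from 0.65 ± 0.11 log2 with E2+(2S,6S)-HNK (adjusted p = 8.6e-07, edgeR) to 1.24 ± 0.11 with E2+(2R,6R)-HNK (adjusted p = 4.0e-15), and those of STAT5B from 0.25 ± 0.041 with E2 (adjusted p = 3.9e-07) to 0.81 ± 0.039 with E2+(2R,6R)-HNK (adjusted p = 5.8e-24). The correction lowered them to 0.35 to 0.79 for STAT5A and 0.15 to 0.69 for STAT5B and left each past the threshold.

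STAT6, the factor of IL-4 and IL-13 signals, had an order of its own. It was at 56.05 and 58.7 CPM with vehicle, 80.1 and 82.6 with E2, 75.2 and 75.9 with ketamine, 67.5 and 76.8 with (2S,6S)-HNK, 78.7 and 81.6 with (2R,6R)-HNK, 97.7 and 97.9 with E2+ketamine, 54.3 and 55.7 with E2+(2S,6S)-HNK, and 63.6 and 63.9 with E2+(2R,6R)-HNK. It was highest with E2+ketamine and, among the treatments, lowest with E2 and either metabolite, while E2+(2R,6R)-HNK gave the highest means of STAT3, STAT5A and STAT5B. The log2 fold change was 0.77 ± 0.042 with E2+ketamine (adjusted p = 2.6e-22, edgeR), 0.15 ± 0.042 with E2+(2R,6R)-HNK (adjusted p = 0.0013) and -0.060 ± 0.043 with E2+(2S,6S)-HNK (adjusted p = 0.23), the last of which was 0.044 with upper-quartile scaling. After the correction STAT6 was past the threshold and higher than vehicle with E2, ketamine, (2R,6R)-HNK and E2+ketamine (0.14 to 0.36), at -0.0039 with (2S,6S)-HNK (adjusted p = 0.94), and past the threshold and lower with E2+(2R,6R)-HNK (-0.22) and E2+(2S,6S)-HNK (-0.23).

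Counted over the family, 9 of 9 members passed the threshold against vehicle with E2 (62.5% of all genes tested did), ketamine (59.3%), (2R,6R)-HNK (66.6%), (2S,6S)-HNK (67.9%), E2+ketamine (71.7%) and E2+(2R,6R)-HNK (69.7%), each time 7 higher and 2 lower, and 7 of 9 did with E2+(2S,6S)-HNK (59.7%), 6 higher and 1 lower. Of all genes, those higher and those lower than vehicle made up 29.9% and 32.7% with E2, 26.8% and 32.5% with ketamine, 32.1% and 35.8% with (2S,6S)-HNK, 31.7% and 34.9% with (2R,6R)-HNK, 34.3% and 37.4% with E2+ketamine, 24% and 35.7% with E2+(2S,6S)-HNK, and 33.4% and 36.3% with E2+(2R,6R)-HNK. Most genes passed in these comparisons, so that a member passing says little on its own. All 7 comparisons share the same 2 vehicle libraries, so the repeat of the pattern is not 7 separate results. The median log2 fold change of the 9 members was 0.40 to 0.81 where that of all genes tested was -0.064 to -0.0027. Changes of at least 1 on the log2 scale were few: JAK3 and STAT5A with (2S,6S)-HNK (9.08% of all genes) and E2+(2R,6R)-HNK (11.5%), JAK2 and STAT5A with E2+ketamine (11%), JAK3 with E2+(2S,6S)-HNK (5.85%), and no member with E2 (1.81%), ketamine (3.56%) or (2R,6R)-HNK (3.75%). Reaching 1 depended on the setting: after the correction JAK3 with E2+(2R,6R)-HNK (1.06) and E2+(2S,6S)-HNK (1.12) did and no other member in any treatment (5.77% and 5.01% of all genes), STAT5A with (2S,6S)-HNK was at 0.92 without (2S,6S)-HNK replicate 2, and JAK2 with E2+ketamine at -0.93 without E2+ketamine replicate 2. After the GC and length correction 7 to 9 members passed in each treatment, where 38.1% to 59.5% of all genes did, and their median was 0.19 to 0.53. Across all genes with a GC value, log2 fold change and GC content rose together in each treatment (Spearman's rho 0.44 to 0.77 over 15358 genes, which are not independent replicates). Over the 9 members alone rho ran from 0.67 with E2+ketamine to 0.92 with E2. The order of their uncorrected changes thus went with their GC content.

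**Figure D3:**
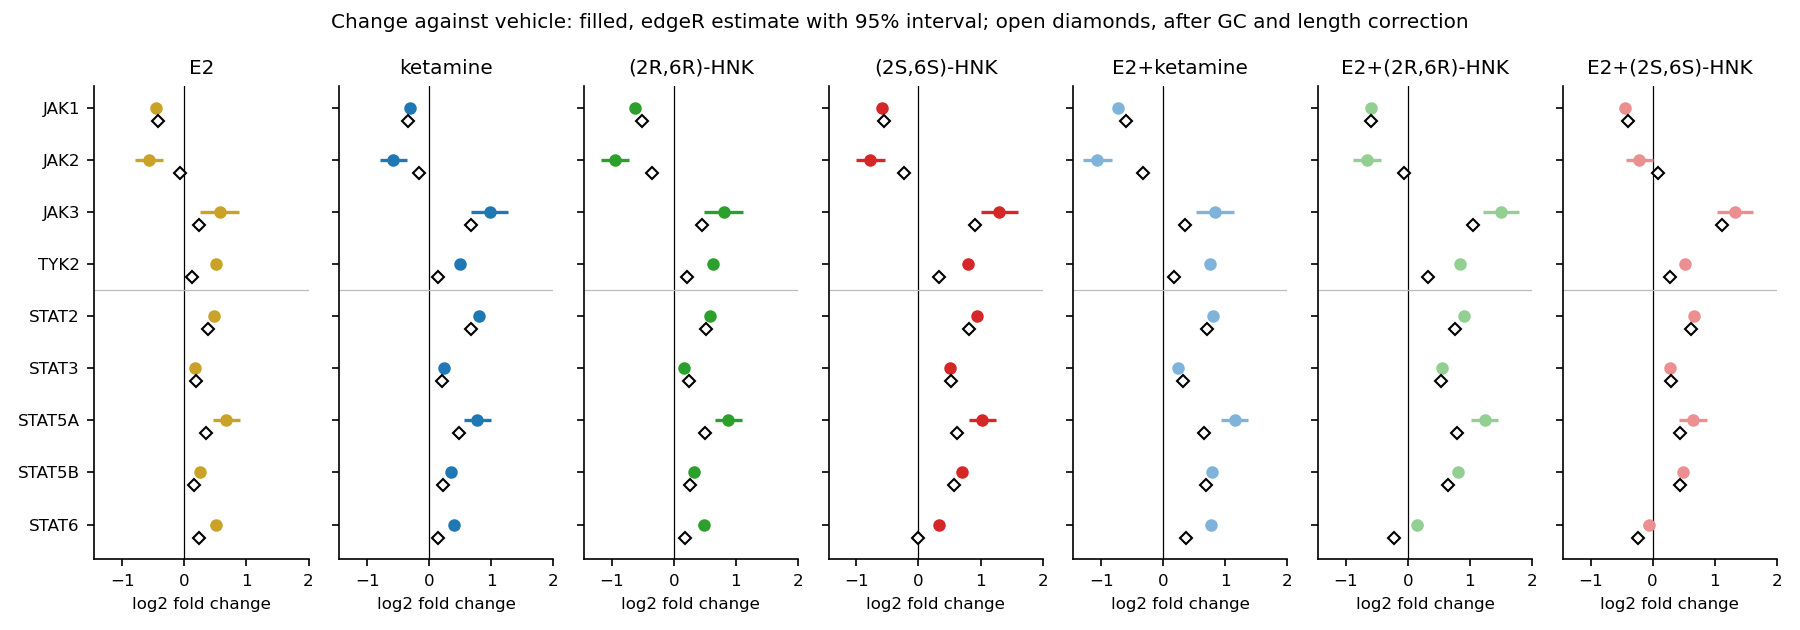
Log2 fold change of each member against vehicle in the 7 treatments, with the edgeR estimate as a filled circle, its 95% interval as a bar (hidden by the circle where narrow) and the estimate after the GC and length correction as an open diamond. JAK1 stays between -0.59 and -0.33 after the correction while JAK2 and TYK2 move toward 0, and STAT6 crosses to the lower side with E2+(2R,6R)-HNK.

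The design crosses each drug with E2. The interaction, what a drug changed when E2 was there less what it changed alone, was tested for each member, and beside each count stands the share of all genes tested whose interaction passed. For (2S,6S)-HNK all 9 members passed (65.1% of all genes), 2 positive (32.9%) and 7 negative (32.2%). The interaction was positive for JAK1 (0.61 ± 0.048 log2, adjusted p = 7.4e-16, edgeR) and JAK2 (1.14 ± 0.16, adjusted p = 1.2e-08), which the drug alone had lowered, and negative for the 7 members it alone had raised, from -0.41 for STAT3 to -1.06 ± 0.15 for STAT5A (adjusted p = 1.5e-08). Since the interaction subtracts the change with the drug alone, signs opposite to that change are in part built in, and nothing is concluded from them. Added to E2, (2S,6S)-HNK moved 6 of 9 members past the threshold (55.1% of all genes). Those that did not pass were JAK1 (0.024, adjusted p = 0.58), TYK2 (0.013, adjusted p = 0.81) and STAT5A (-0.026, adjusted p = 0.85), which were at -0.58, 0.79 and 1.03 when the drug was given without E2. After the correction TYK2 passed (0.15, adjusted p = 9.3e-05) and JAK2 went from 0.36 to 0.15, adjusted p = 0.25, which left 6 members (51.7% of all genes). The interaction of JAK3 (-0.55, adjusted p = 0.016) was lost without (2S,6S)-HNK replicate 2 (-0.37, adjusted p = 0.14) or vehicle replicate 2 (-0.28, adjusted p = 0.26), and after the correction it was -0.025. The other 8 stayed past the threshold after the correction, where 40.8% of all genes did, but most were smaller: JAK2 was at 0.38, adjusted p = 0.045, TYK2 at -0.18, STAT5A at -0.54, STAT6 at -0.46 and STAT5B at -0.28, against JAK1 at 0.58, STAT2 at -0.58 and STAT3 at -0.40.

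For (2R,6R)-HNK, 7 of 9 members passed (56.6% of all genes). STAT6 was at -0.83 ± 0.059 log2 (adjusted p = 3.5e-17, edgeR): the metabolite raised STAT6 by 0.48 when given alone, and on top of E2 its change was -0.35 ± 0.041 (adjusted p = 4.9e-10). JAK1 (0.49) and JAK2 (0.87 ± 0.16, adjusted p = 6.6e-06) were positive, as were STAT3 (0.20 ± 0.041, adjusted p = 2.3e-05) and STAT5B (0.23), whose rise with the metabolite was larger in the presence of E2, while TYK2 (-0.31) and STAT2 (-0.16) were negative. The interaction of STAT2 was lost without vehicle replicate 1 (-0.12, adjusted p = 0.069). JAK3 (0.13, 95% interval -0.28 to 0.54) and STAT5A (-0.32, 95% interval -0.61 to -0.023, adjusted p = 0.060) did not pass. After the correction JAK1 (0.36), STAT2 (-0.15), STAT3 (0.10), STAT5B (0.23) and STAT6 (-0.64) remained past the threshold, and JAK2 (0.35, adjusted p = 0.069) and TYK2 (-0.014, adjusted p = 0.85) did not (43.7% of all genes passed). Added to E2, (2R,6R)-HNK moved 8 of 9 members past the threshold (50.5% of all genes), with JAK3 (0.93), STAT5A (0.56), STAT5B (0.55), STAT2 (0.42), STAT3 (0.38) and TYK2 (0.32) higher and STAT6 and JAK1 (-0.13) lower, and the same 8 passed after the correction (50.5%), with TYK2 at 0.20.

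For ketamine, 5 of 9 members passed (37.5% of all genes): JAK3 (-0.70 ± 0.21 log2, adjusted p = 0.0049, edgeR), STAT2 (-0.49 ± 0.052, adjusted p = 8.7e-11), TYK2 (-0.26), STAT3 (-0.18) and STAT5B (0.17 ± 0.056, adjusted p = 0.011). STAT2 shows the pattern plainly. Ketamine alone took it to 113.8 and 117.9 CPM and E2+ketamine to 113.0 and 118.4, although E2 alone had already raised it, and the effect of E2 in the presence of ketamine was -0.002 log2 (95% interval -0.073 to 0.069). STAT3 differed between ketamine and E2+ketamine by -0.00032 (95% interval -0.058 to 0.057), but after the correction it was higher with E2 present (0.12, adjusted p = 1.8e-05), while STAT2 was at 0.022, adjusted p = 0.61. STAT5B was the one member called with a positive interaction: it rose by 0.35 with ketamine, 0.25 with E2 and 0.78 with both. The count fell to 3 without E2+ketamine replicate 1, which ended the calls of JAK3 (-0.54, adjusted p = 0.053) and STAT5B (0.15, adjusted p = 0.060). The call of STAT5B was also lost without ketamine replicate 1 (0.14) or vehicle replicate 1 (0.12) and that of JAK3 without vehicle replicate 2 (-0.44). After the correction JAK1 (0.17), JAK3 (-0.56), STAT2 (-0.36) and STAT5B (0.31) were past the threshold, as were 36.8% of all genes. JAK1 (0.052, 95% interval -0.045 to 0.15), JAK2 (0.088, -0.24 to 0.41), STAT5A (-0.30, -0.60 to -0.0088) and STAT6 (-0.13, -0.25 to -0.013) did not pass without it. Added to E2, ketamine moved 7 of 9 members past the threshold (50.3% of all genes), with STAT5B (0.53), STAT5A (0.48), STAT2 (0.31), STAT6 (0.27) and TYK2 (0.24) higher and JAK2 (-0.49) and JAK1 (-0.26) lower. After the correction TYK2 (0.051, adjusted p = 0.25) and JAK2 (-0.26, adjusted p = 0.081) no longer passed, and STAT3 did (0.14, adjusted p = 4.6e-06), so that 6 passed (35.6% of all genes), of which JAK1 (-0.17), STAT5A (0.30) and STAT6 (0.13) were smaller than before.

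**Figure D4:**
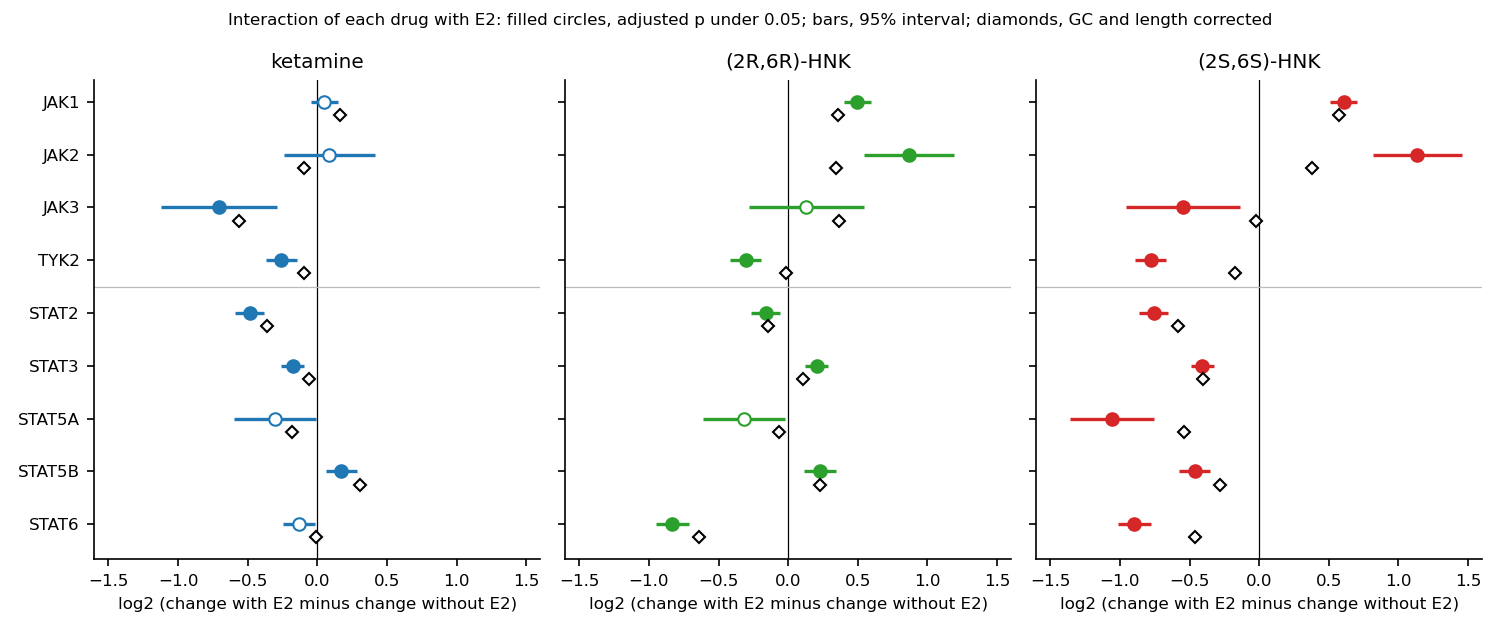
Interaction of each drug with E2 for the 9 members on the log2 scale, that is the change with E2 present minus the change without it, with 95% intervals as bars, filled circles for an adjusted p under 0.05 and diamonds for the estimate after the GC and length correction. The (2S,6S)-HNK panel shows JAK1 and JAK2 on the positive and 7 members on the negative side, and STAT6 is far to the negative side with both metabolites (-0.83 and -0.90).

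The effect of E2 in the presence of each drug rests on the same libraries. On top of ketamine 6 of 9 members passed (57.5% of all genes), with STAT5B (0.43), STAT5A (0.37), STAT6 (0.37) and TYK2 (0.26) higher and JAK1 (-0.41) and JAK2 (-0.49) lower. STAT5A lost its call without ketamine replicate 1 (0.27, adjusted p = 0.051). After the correction the calls of TYK2 (0.029, adjusted p = 0.52), STAT5A (0.17, adjusted p = 0.15) and JAK2 (-0.16, adjusted p = 0.27) were lost, and STAT3 (0.12) and JAK3 (-0.32, adjusted p = 0.042) came past the threshold, so that 5 passed (42.7%), JAK1 and STAT6 at the smaller values of -0.26 and 0.23. On top of (2R,6R)-HNK 8 of 9 passed (47.9%), with JAK3 (0.70) and STAT5B (0.48) the furthest up and STAT6 (-0.33) the one member down. JAK2 (0.29, adjusted p = 0.033, edgeR) was no longer past the threshold without (2R,6R)-HNK replicate 1 (0.22) or E2+(2R,6R)-HNK replicate 1 (0.21), and the same 8 passed after the correction (49%), with TYK2 down from 0.21 to 0.11. On top of (2S,6S)-HNK 8 of 9 passed (51.3%), with JAK2 (0.56) and JAK1 (0.15) higher and STAT6 (-0.39), STAT5A (-0.38), STAT2 (-0.27), TYK2 (-0.26), STAT3 (-0.23) and STAT5B (-0.21) lower. STAT5A lost its call without (2S,6S)-HNK replicate 2 (-0.27, adjusted p = 0.071). After the correction TYK2 (-0.051, adjusted p = 0.26) and STAT5A (-0.19, adjusted p = 0.14) missed the threshold and 6 passed (31.4%), of which JAK2 (0.31), STAT5B (-0.13) and STAT6 (-0.23) were smaller than before. The same dose of E2 thus went with higher STAT3 (0.38), STAT2 (0.32) and STAT5B beside one mirror-image metabolite and with lower levels of the same 3 genes beside the other.

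The drugs were compared with one another at the same dose and time, in 6 pairs for each of the 9 genes, without and with E2. (2R,6R)-HNK and (2S,6S)-HNK are mirror images, and ketamine lacks their hydroxyl group and carries an N-methyl group that they lack. Without E2, 6 of 9 members differed between the enantiomers (43.5% of all genes). Lower with (2R,6R)-HNK than with (2S,6S)-HNK were STAT3 (-0.34 ± 0.029 log2, adjusted p = 4.5e-14, edgeR), STAT5B (-0.38 ± 0.039, adjusted p = 2.1e-11), STAT2 (-0.35 ± 0.036, adjusted p = 1.3e-11), JAK3 (-0.50) and TYK2 (-0.16), and higher was STAT6 (0.15). JAK1 (-0.036, 95% interval -0.11 to 0.034), JAK2 (-0.18, -0.42 to 0.064) and STAT5A (-0.16, -0.35 to 0.044) did not pass, and the same 6 members passed after the correction (45% of all genes). The call of JAK3 was lost without (2S,6S)-HNK replicate 2 (-0.33, adjusted p = 0.12) and that of STAT6 without (2S,6S)-HNK replicate 1 (0.062, adjusted p = 0.29).

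With E2 the sign of the difference turned for 5 of those genes, past the threshold for STAT3, STAT5B, STAT2 and TYK2 and not for JAK3. Higher with E2+(2R,6R)-HNK than with E2+(2S,6S)-HNK were STAT3 (0.28 ± 0.028 log2, adjusted p = 5.8e-12, edgeR), STAT5A (0.58 ± 0.096, adjusted p = 8.5e-07), STAT5B (0.32), TYK2 (0.31), STAT2 (0.24) and STAT6 (0.21), and lower were JAK1 (-0.15) and JAK2 (-0.45), so that 8 of 9 passed (54% of all genes), and JAK3 was at 0.17 (95% interval -0.076 to 0.42). In levels, STAT3 stood at 150.1 CPM with (2R,6R)-HNK against 189.6 with (2S,6S)-HNK, but at 195 with E2+(2R,6R)-HNK and 161 with E2+(2S,6S)-HNK. The difference between the enantiomers with E2 minus that without E2, a contrast added after the data were seen, passed for 6 of 9 members (47.2% of all genes): STAT5A (0.74 ± 0.14), STAT5B (0.69 ± 0.054, adjusted p = 2.8e-15), JAK3 (0.68), STAT3 (0.61 ± 0.040, adjusted p = 5.6e-18), STAT2 (0.60) and TYK2 (0.47), all positive as were 25.8% of all genes (edgeR). JAK1 (-0.11, 95% interval -0.21 to -0.015), JAK2 (-0.27, -0.60 to 0.057) and STAT6 (0.064, -0.055 to 0.18) did not pass. After the GC and length correction STAT3 (0.51), STAT5B (0.51), STAT5A (0.47), STAT2 (0.44) and TYK2 (0.16) stayed past the threshold, JAK3 (0.39, adjusted p = 0.075) did not, and JAK1 (-0.22) and STAT6 (-0.18) came past it on the negative side, and 39% of all genes passed. Within E2 the corrected differences of TYK2 (0.049), JAK2 (-0.15) and STAT6 (0.0075) missed the threshold, JAK3 was at -0.065, and 5 of 9 passed (30.2% of all genes), STAT3 (0.23), STAT5A (0.35), STAT5B (0.19), STAT2 (0.13) and JAK1 (-0.19).

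Ketamine and (2R,6R)-HNK differed without E2 in 5 of 9 members (45.4% of all genes), with JAK1 (0.30 ± 0.034 log2, adjusted p = 1.1e-10, edgeR), JAK2 (0.38), STAT2 (0.22) and STAT3 (0.068) higher and TYK2 (-0.13) lower with ketamine. Of these JAK1 (0.18) and STAT2 (0.16) passed after the correction (38.9% of all genes), and the same 2 were left without ketamine replicate 1 and without (2R,6R)-HNK replicate 1. The call of STAT3 was lost without any one of the 4 libraries compared, at 0.051 to 0.085. JAK3 (0.17, 95% interval -0.095 to 0.44), STAT5A (-0.097, -0.29 to 0.098), STAT5B (0.030, -0.048 to 0.11) and STAT6 (-0.084, -0.17 to -0.0031) did not pass. With E2, 6 of 9 passed (52% of all genes): STAT6 was 0.62 ± 0.041 higher with E2+ketamine (adjusted p = 3.6e-18, edgeR), and JAK3 (-0.66), JAK2 (-0.40), STAT3 (-0.31 ± 0.028, adjusted p = 1.7e-13), JAK1 (-0.14) and STAT2 (-0.11) were lower. JAK2 and STAT2 lost that call without E2+ketamine replicate 2 (-0.27 and -0.077) or E2+(2R,6R)-HNK replicate 1 (-0.32 and -0.092), and after the correction JAK3 (-0.70), TYK2 (-0.15), STAT3 (-0.20) and STAT6 (0.59) passed (50.7% of all genes). TYK2 (-0.083, 95% interval -0.16 to -0.0067), STAT5A (-0.083, -0.27 to 0.11) and STAT5B (-0.026, -0.10 to 0.050) did not pass, though edgeR's p for TYK2 was 0.034 when adjusted over the 6 pairs in place of all genes.

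Ketamine and (2S,6S)-HNK differed without E2 in 7 of 9 members (46.1% of all genes). JAK1 was higher with ketamine (0.27 ± 0.034 log2, adjusted p = 4.2e-09, edgeR), and STAT5B (-0.35 ± 0.038, adjusted p = 1.1e-10), JAK3 (-0.33), TYK2 (-0.29), STAT3 (-0.27), STAT5A (-0.25) and STAT2 (-0.14) were lower. JAK3 (adjusted p = 0.034) and STAT5A (adjusted p = 0.029) lost the call without (2S,6S)-HNK replicate 2 (-0.16 and -0.14) or ketamine replicate 1 (-0.30 and -0.14), JAK3 also without ketamine replicate 2 (-0.36), and STAT2 without (2S,6S)-HNK replicate 2 (-0.081). JAK2 (0.20, 95% interval -0.031 to 0.43) and STAT6 (0.066, -0.017 to 0.15) did not pass. After the correction JAK3 (-0.23, adjusted p = 0.13) and STAT5A (-0.15, adjusted p = 0.24) missed the threshold and STAT6 came past it (0.14, adjusted p = 0.00079), which left 6 members (41.4% of all genes), with TYK2 at -0.18. With E2, 8 of 9 passed (66.8% of all genes): STAT6 (0.83 ± 0.041, adjusted p = 1.7e-23, edgeR), STAT5A (0.50), STAT5B (0.29), TYK2 (0.23) and STAT2 (0.13) were higher with E2+ketamine and JAK2 (-0.85 ± 0.12, adjusted p = 7.0e-09), JAK3 (-0.49) and JAK1 (-0.29) lower, and STAT3 (-0.036, 95% interval -0.093 to 0.022) did not pass. The call of JAK3 was lost without E2+ketamine replicate 1 (-0.32). After the correction TYK2 turned to -0.098 (adjusted p = 0.0078) and STAT5A (0.21) missed the threshold, and 7 of 9 passed (56.1% of all genes), the others being STAT6 (0.60), STAT5B (0.24), STAT2 (0.081), JAK1 (-0.20), JAK2 (-0.41) and JAK3 (-0.77).

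**Figure D5:**
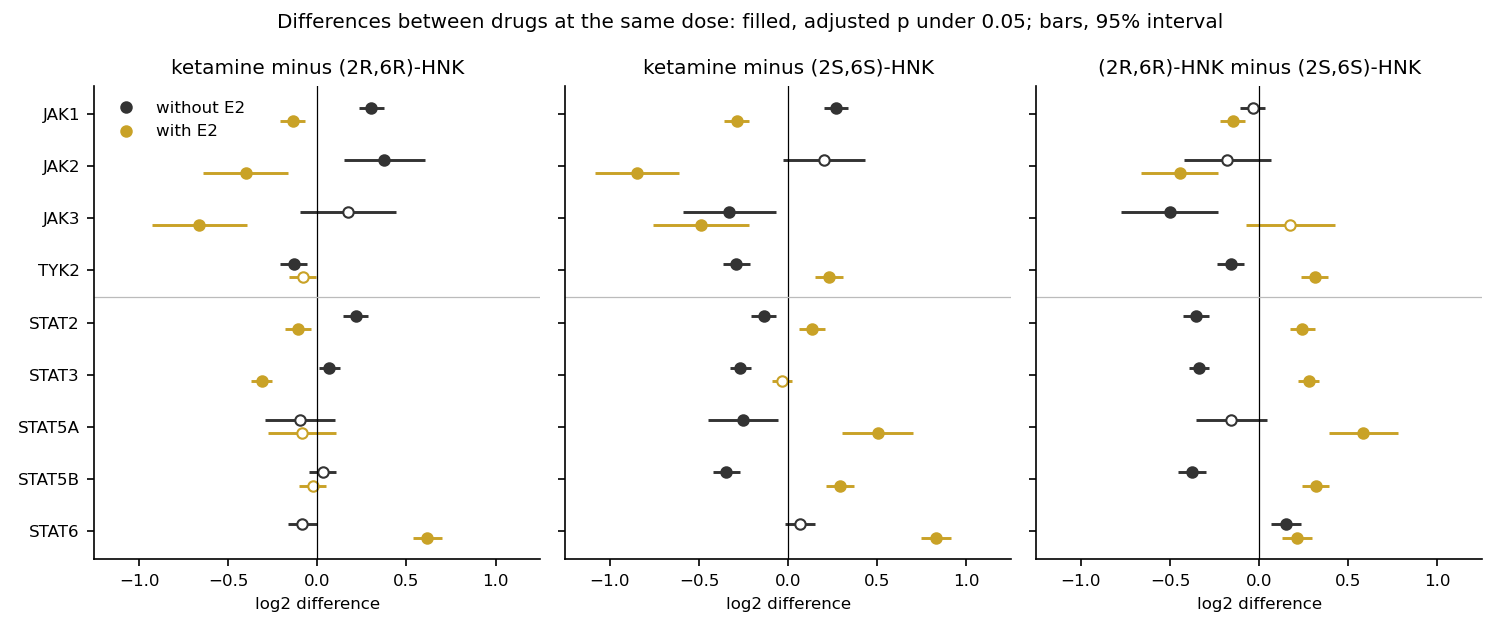
Log2 differences between drugs at 400 nM for the 9 members (horizontal axes), without E2 in black and with E2 in ochre, filled where the adjusted p was under 0.05, with 95% intervals as bars. In the right panel STAT3, STAT2, STAT5B and TYK2 lie on opposite sides of 0 without and with E2, and STAT6 separates E2+ketamine from both metabolites with E2 (0.62 and 0.83).

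The rest of the pathway was described from lists of receptor chains, ligands, inhibitors and target genes. Over all genes, 24% to 34.3% passed and were higher than vehicle and 32.5% to 37.4% passed and were lower, which became 15.7% to 25.9% and 22.4% to 34% after the correction, and the ranges that follow are over the 7 treatments. Of 41 receptor chains 30 were tested, 9 to 15 rose and 5 to 10 fell, with a median log2 fold change of 0.019 to 0.36, and after the correction 5 to 14 rose and 3 to 8 fell, with a median of -0.072 to 0.32. IL7R, the IL-7 receptor chain, at 26.0 CPM with vehicle, fell in all 7 treatments, with changes of -1.59 to -0.88 log2, which were -1.03 to -0.67 after the correction, and IL6ST, the gp130 chain through which IL-6 family ligands reach JAK1 and STAT3, at 137 CPM with vehicle, fell with changes of -0.995 to -0.49, which became -0.24 to -0.089. IL27RA, which signals with gp130, rose from 7.19 CPM by 0.37 to 1.18, and IL21R, a common gamma chain partner, from 1.05 CPM by 0.60 to 1.28, both in 7 of 7 treatments. After the correction IL27RA ran from 0.048 to 0.76 and passed in 4, and IL21R ran from 0.30 to 1.08 and passed in 3, neither of them with E2 alone (0.048, adjusted p = 0.74 and 0.30, adjusted p = 0.31). Among 26 ligands 10 were tested, 3 to 8 rose and 0 to 3 fell, with medians of 0.16 to 0.59, and after the correction 2 to 5 rose and 0 to 4 fell, with medians of -0.10 to 0.34. EBI3, a subunit of IL-27 and IL-35, and CTF1, the gp130 ligand cardiotrophin, rose in 6 of 7 treatments, but after the correction EBI3 ran from -0.046 to 0.29 and CTF1 from -0.20 to 0.070 and neither passed in any treatment. IL11, another gp130 ligand, at 71.6 CPM with vehicle, passed in 6, of which 3 were falls, all with a metabolite: -0.53 with (2S,6S)-HNK, -0.69 with E2+(2R,6R)-HNK and -0.71 with E2+(2S,6S)-HNK. After the correction IL11 lay below 0 in all 7 (-1.10 to -0.022) and passed as lower in 5, so that its 3 rises did not stand.

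All 18 inhibitors were tested, 4 to 7 rose and 7 to 10 fell, with medians of -0.20 to -0.066. After the correction 1 to 3 rose and 5 to 9 fell, with medians of -0.28 with (2S,6S)-HNK to -0.00059 with E2. PTPN11, the phosphatase SHP2, at 321 CPM with vehicle, fell in all 7 treatments with changes of -1.23 to -0.72 log2, and of -0.78 to -0.56 after the correction, and SOCS5 fell in 7 with changes of -1.10 to -0.50 (-0.55 to -0.21 after the correction). USP18, which restrains the type I interferon receptor and is itself induced by interferon, rose in 7 of 7 by 0.29 to 1.07 (0.39 to 1.298 after the correction). SOCS1, a direct JAK inhibitor at 0.794 CPM with vehicle, rose in 4 of 7. After the correction the 7 changes of SOCS1 ran from -0.58 to 0.54 and none of them passed. Of 23 STAT3 targets 20 were tested. Of them 8 to 16 rose and 3 to 7 fell, with medians of 0.098 to 0.55, but 5 to 8 rose and 4 to 10 fell after the correction, when the medians were -0.071 to 0.12. CEBPD, a transcription factor of the acute phase, rose by 1.04 to 2.04 and FOS, a subunit of AP-1, by 0.96 to 1.69 in all 7 treatments, with 0.57 to 1.32 and 0.72 to 1.43 after the correction. CCND1, the cell cycle protein cyclin D1, at 372 CPM with vehicle, fell in all 7 with changes of -1.01 to -0.51, and so did HIF1A, the hypoxia factor, with changes of -0.92 to -0.52. After the correction CCND1 was at -1.23 to -0.67, past the threshold in all 7, and HIF1A at -0.41 to -0.028, past it in 6 and not with E2 (-0.028, adjusted p = 0.53).

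Of 34 targets of the STAT2 complex, the interferon-stimulated genes, 31 were tested, 11 to 21 rose and 1 to 8 fell, with medians of 0.17 to 0.75, and after the correction 11 to 24 rose and 0 to 4 fell, with medians of 0.15 to 0.67. The study had picked out interferon responses in these same libraries, so the count is not independent evidence of their direction. IFITM1 rose in 6 of 7 treatments, by up to 2.81 log2 from 1.22 CPM, and MX1 in 5 of 7, by up to 1.81 from 1.63 CPM, both of which hinder viruses, while IFIT5 fell in 7 of 7 with changes of -1.05 to -0.53 and IFIT3 in 4. After the correction MX1 passed in 5, IFITM1 in 4, IFIT5 (-0.52 to -0.042) in 5 and IFIT3 (-0.48 to 0.25) in 2. Of 11 STAT5 targets 8 were tested, 2 to 4 rose and 1 to 3 fell, with medians of -0.0085 to 0.27, and after the correction 0 to 2 rose and 1 to 4 fell, with medians of -0.24 to -0.019. The survival kinase PIM1 rose in 7 of 7 (0.16 to 0.51) and its relative PIM2 in 6, and after the correction PIM1 was at -0.015 to 0.20 and passed in 4 and PIM2 in 3. ID1, an inhibitor of differentiation factors, passed in 4 treatments, of which 3 were falls: -1.59 with (2S,6S)-HNK, -1.44 with E2+(2R,6R)-HNK and -1.54 with E2+(2S,6S)-HNK, the same treatments in which IL11 fell. After the correction ID1 lay below 0 in all 7 (-1.93 to -0.052) and passed as lower in 5. Of 12 STAT6 targets 7 were tested, 1 to 4 rose and 0 to 2 fell, with medians of 0.0088 to 0.65, and after the correction 1 to 2 rose and 0 to 3 fell, with medians of -0.23 to 0.35. TGM2, a transglutaminase, rose in 6 of 7 by up to 1.23, and CCL26, the chemokine eotaxin-3, rose with E2+ketamine (0.65) and fell with (2S,6S)-HNK (-0.77), E2+(2R,6R)-HNK (-1.17) and E2+(2S,6S)-HNK (-1.32), at a level of 1.94 CPM with vehicle. After the correction TGM2 passed as higher in 6, and CCL26 as higher in 1 and lower in 3.

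Across the 16 libraries the members' log2 levels are given as descriptions, since libraries of a condition are not independent of one another and all share the trend with GC content. JAK1 and TYK2 ran opposite (Pearson's r = -0.92), TYK2 and STAT5A together (0.97), and STAT6 was near 0 with STAT3 (-0.027). Of 10373 genes with a mean of at least 5 CPM, those most like STAT3 included PHC1 (r = 0.991) and MAP3K9 (0.977), with exon GC contents of 50.9% and 52.1%. Those most like JAK2 were OTUD3 (0.969), ZNF189 (0.967) and NEK1 (0.959), with GC contents of 44.5%, 42.8% and 36.7%. The palindrome TTCNNNGAA, which STAT dimers bind, was searched on both strands in 1 promoter window of 300 bases per gene, 250 before and 50 from the start of the canonical transcript. It occurred in 0 of the 9 members' windows, against 6.79% of 23037 windows of that length, which says only that those letters are not in these windows.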

How the data were processed

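Raw gene counts were deposited by the authors for 16 libraries, and per the labels and the study's methods they come from Ovation RNA-seq v2 libraries read as 100-base pairs, aligned to hg19 and counted over UCSC gene models from uniquely mapped, non-discordant pairs. The submitters' processing notes name TopHat2 2.0.14, Bowtie2 2.2.6 and featureCounts 1.4.6. Duplicate or multiply mapped reads cannot be recovered from such counts. Counts were fitted in edgeR 4.0.16 (R 4.3.3) as 1 model of 8 conditions with TMM factors, after filterByExpr kept 16004 of 25370 genes, and tested by the quasi-likelihood F test, two-sided, with p-values adjusted by Benjamini-Hochberg across the whole set tested. The threshold was an adjusted p under 0.05, with no fold limit. Intervals are 95% intervals from the standard error and the degrees of freedom of the fit, and cover the spread of libraries only. Groups of 2 are too small for an exact permutation of one gene's values to get under 0.05. CPM used TMM-scaled library sizes, and FPKM lengths came from a GRCh37 annotation. The correction fitted each library's log2 values by loess (span 0.5) on GC content and exon length, as offsets. GC content was had for 15358 of the genes tested (96.0%). Members and lists were chosen with earlier results of these data known. From each list up to 2 risers and 2 fallers were named by mean change over 7 treatments, at a mean of at least 1 CPM and with at least 4 calls, and IRF9 and up to 3 genes most like STAT3 and JAK2 beside them. On simulated data for ketamine against vehicle, 71.5% of 200 genes changed by 0.5 log2 among 16004 were called, with 8 false calls. Those simulated counts held no trend with GC content, unlike the libraries here. The 8 false calls therefore give no error rate for the uncorrected calls in these libraries. Alternatives were DESeq2 1.42.0, RLE and upper-quartile factors, other filters, halved counts, fits of the groups compared, the replicate number as a block, the GC and length correction, other gene lengths and leaving out each library. Some genes of the family and of the lists are not reported here.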

Additional observations from a re-analysis of the deposited data

Results flagged for a closer look

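The effect of a drug on these transcripts differed with and without E2 in 21 tests of the interaction itself, each with an adjusted p under 0.05 in edgeR's quasi-likelihood test. With ketamine these were JAK3 (-0.70), TYK2 (-0.26), STAT2 (-0.49), STAT3 (-0.18) and STAT5B (0.17) on the log2 scale. With (2R,6R)-HNK they were JAK1 (0.49), JAK2 (0.87), TYK2 (-0.31), STAT2 (-0.16), STAT3 (0.20), STAT5B (0.23) and STAT6 (-0.83). With (2S,6S)-HNK they were JAK1 (0.61), JAK2 (1.14), JAK3 (-0.55), TYK2 (-0.78), STAT2 (-0.76), STAT3 (-0.41), STAT5A (-1.06), STAT5B (-0.46) and STAT6 (-0.90). The difference between the enantiomers differed with and without E2 for JAK3 (0.68), TYK2 (0.47), STAT2 (0.60), STAT3 (0.61), STAT5A (0.74) and STAT5B (0.69). Of all genes tested 37.5%, 56.6%, 65.1% and 47.2% passed these 4 tests in the order given, and 36.8%, 43.7%, 40.8% and 39% after the correction for GC content and length. The slope on GC content moves with these groups: it was -0.364 and -0.385 in vehicle and -0.104 and -0.147 with E2+(2S,6S)-HNK, below 0 as with ketamine alone, and above 0 in the other treated libraries. After the correction TYK2 and STAT3 with ketamine, JAK2 and TYK2 with (2R,6R)-HNK, JAK3 with (2S,6S)-HNK and JAK3 in the enantiomer contrast were no longer past the threshold, and the other 21 values were, TYK2 (-0.18), STAT5A (-0.54), STAT6 (-0.46), STAT5B (-0.28) and JAK2 (0.38) with (2S,6S)-HNK, STAT3 with (2R,6R)-HNK (0.10) and TYK2 (0.16) and STAT5A (0.47) in the enantiomer contrast smaller by over 1.5 times and STAT5B with ketamine larger (0.31).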

How the results depend on the processing

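The causes of the changes given here were not tested. Of 207 results on members in the comparisons, 207 kept their direction and side of the threshold without the filter on low counts and 207 with the replicate block, 206 with counts halved, 204 with at least 10 counts in every library, 201 with RLE factors, 201 with edgeR on the groups compared, 198 with DESeq2, 197 with upper-quartile factors and 153 with the GC and length correction, which ended 30 calls and added 8 with the sign kept and turned 16 signs, 4 of them of called values. With the sign kept, DESeq2 ended 5 calls and added 1, upper-quartile factors ended 1 and added 6, and RLE factors ended 1 and added 2. The fit of the groups compared added 3. Leaving out 1 library kept 914 of 972. Upper-quartile factors moved the median of all genes by 0.10 log2 in E2+(2S,6S)-HNK against vehicle. With the correction, with or without the replicate block, the members past the threshold were 2 for ketamine against (2R,6R)-HNK (2 to 4 with 1 library left out) and 5 for E2+(2R,6R)-HNK against E2+(2S,6S)-HNK. The ketamine interaction kept 3 to 5 with 1 library left out. The signs that turned with the correction were STAT6 with (2S,6S)-HNK (-0.0039 (-0.0046 with the block)) and E2+(2R,6R)-HNK (-0.22), JAK2 with E2+(2S,6S)-HNK (0.082 (0.079 with the block)) and in the ketamine interaction (-0.096 (-0.093 with the block)), STAT3 (-0.038 (-0.037 with the block)) and STAT5B (-0.035) between ketamine and (2R,6R)-HNK, JAK1 between the enantiomers (0.034), STAT5B between E2+ketamine and E2+(2R,6R)-HNK (0.046), TYK2 (-0.098) and STAT3 (0.026 (0.027 with the block)) between E2+ketamine and E2+(2S,6S)-HNK, JAK3 between the enantiomers with E2 (-0.065), STAT6 in the enantiomer contrast (-0.18), STAT5A when (2S,6S)-HNK was added to E2 (0.084 (0.085 with the block)), STAT2 (0.022) and STAT3 (0.12) when E2 was added to ketamine, and JAK1 when E2 was added to (2R,6R)-HNK (-0.071). Values near 0 turned also for STAT2 when E2 was added to ketamine with RLE factors (0.021), the groups compared (0.019) and DESeq2 (0.020), for STAT3 in that comparison with the same 3 settings (0.022, 0.021 and 0.021) and with at least 10 counts (0.0001), and when (2S,6S)-HNK was added to E2 for TYK2 with RLE factors (-0.0001) and DESeq2 (-0.00050) and for STAT5A with upper-quartile factors (0.015). Upper-quartile factors turned STAT6 with E2+(2S,6S)-HNK (0.044) and JAK1 in the ketamine interaction (-0.034), and the fit of the groups compared turned the former (0.012). Leaving out 1 library turned values that were not called, with these ranges: STAT6 between ketamine and (2S,6S)-HNK (-0.022 to 0.16), JAK2 in the ketamine interaction (-0.059 to 0.23), STAT5A (-0.21 to 0.011) and STAT5B (-0.00050 to 0.060) between ketamine and (2R,6R)-HNK, JAK3 in the (2R,6R)-HNK interaction (-0.19 to 0.39), STAT6 in the enantiomer contrast (-0.034 to 0.15), JAK3 (-0.32 to 0.032), STAT2 (-0.037 to 0.030) and STAT3 (-0.021 to 0.018) when E2 was added to ketamine, JAK3 when E2 was added to (2S,6S)-HNK (-0.12 to 0.20), and TYK2 (-0.043 to 0.064) and STAT5A (-0.071 to 0.015) when (2S,6S)-HNK was added to E2.

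Of the pathway lists, the correction took the called receptor chains with E2 from 17 to 9, with ketamine from 21 to 14 (13 with the block) and with (2R,6R)-HNK from 21 to 11, the ligands with E2 from 5 to 2, the inhibitors with E2 from 14 to 7, with ketamine from 13 to 8 and with (2R,6R)-HNK from 14 to 10 (9 with the block), the STAT3 targets with E2 from 17 to 11, with (2R,6R)-HNK from 18 to 10 and with E2+ketamine from 18 to 11, the STAT2 complex targets with E2+(2S,6S)-HNK from 22 to 14 (15 with the block), the STAT5 targets with E2 from 5 to 3 and with E2+(2S,6S)-HNK from 5 to 3, and the STAT6 targets with E2 from 4 to 1, with ketamine from 3 to 1, with (2R,6R)-HNK from 3 to 1 and with E2+ketamine from 4 to 2. Over all genes the called share moved too, from 62.5% to 38.1% with E2, 59.3% to 48.5% with ketamine, 66.6% to 45.7% with (2R,6R)-HNK, 71.7% to 52.6% with E2+ketamine and 59.7% to 56.4% with E2+(2S,6S)-HNK. STAT6 targets with E2+(2S,6S)-HNK went from 2 to 1 with at least 10 counts in every library or with counts halved. Without vehicle replicate 1 the ligands fell from 8 to 4 with (2S,6S)-HNK (5 without vehicle replicate 2) and from 8 to 5 with E2+ketamine, and the STAT5 targets from 5 to 3 with ketamine. Libraries that share a replicate number did not deviate together: the correlation of their deviations was -0.0258 to 0.0451 over 28 pairs of groups, and the replicate block changed no call of a member. JAK3, JAK2 and STAT5A have the fewest counts of the members, and each error given rests on 2 libraries per condition.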
